A study of Arabidopsis thaliana with 16 samples.

Results

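The DNA methylation and demethylation enzymes of Arabidopsis were followed across callus cells grown in spaceflight and on the ground. The set was chosen by locus and holds 9 genes: the DNA methyltransferases MET1 (At5g49160), CMT3 (At1g69770) and DRM2 (At5g14620), the chromatin remodeler DDM1 (At5g66750), the histone methyltransferase KYP (At5g13960) and the DNA demethylases ROS1 (At2g36490), DME (At5g04560), DML2 (At3g10010) and DML3 (At4g34060). A probe set of the ATH1 array was taken where its annotation gave one of these loci. That found 11 probe sets for 8 of the 9 genes, out of 22687 probe sets tested. DME had 3 probe sets, DRM2 had 2 and the other genes had 1 each, and DML3 was not analysed here.

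The cells were hypocotyl-derived callus lines of Col-0 wild type (WT) and of HSFA2 KO, a T-DNA insertion line of the heat shock transcription factor gene HsfA2, and each genotype was 1 culture line kept for months before launch. They grew in the dark on plates inside BRIC canisters and were fixed in RNAlater on day 10, at a labelled age of 14 days, with the ground plates run 48 h behind the flight plates. The 4 groups are HSFA2 KO in spaceflight (FHsf, 3 arrays), HSFA2 KO on the ground (GHsf, 3 arrays), WT in spaceflight (FWt, 5 arrays) and WT on the ground (GWt, 5 arrays). The 2 arrays of plate A1 were averaged in each WT group, which left 3, 3, 4 and 4 samples in that order. All HSFA2 KO plates were in BRIC B, whereas WT plates were in BRIC A and BRIC B. A difference between genotypes cannot be told apart from a difference between the culture lines, and within-canister values are given where a result needs them.

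Plant DNA methylation sits at cytosines in CG, CHG and CHH contexts, where H is any base but G. MET1 copies CG methylation onto the new strand after replication, CMT3 maintains CHG methylation at nucleosomes whose histone H3 KYP has methylated at lysine 9, and DRM2 methylates cytosines in all contexts where small RNAs guide it. DDM1 opens nucleosomal DNA to the methyltransferases in heterochromatin. ROS1, DME, DML2 and DML3 are DNA glycosylases that cut out 5-methylcytosine, which base excision repair then replaces. DME is best known from the central cell of the ovule, where it acts on imprinted genes, and ROS1 is the main demethylase of vegetative tissue, where its own promoter responds to the methylation state. These roles concern activity on DNA, which the arrays did not measure. The values here are transcript signals, and in bulk callus fewer cells of a type and less RNA per cell cannot be told apart.

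Values are MAS5 signals, fluorescence intensities per probe set which the authors scaled so that arrays share a trimmed mean, and array medians ran from 68.7 to 123. A sample's log2 values correlated with its own group at a median r of 0.872 to 0.932. HsfA2 read 34.5 to 170 in FHsf, 7.38 to 76.5 in GHsf, 5362 to 9180 in FWt and 3187 to 6291 in GWt, low in every library labelled HSFA2 KO. The callus regulator LBD16 read at least 151 in every sample, but it is 1 of 7 callus and root meristem probe sets listed. The group mean exceeded the median signal of all probe sets for 4, 3, 3 and 3 of these 7 in FHsf, GHsf, FWt and GWt. Of the markers listed for other tissues, the group mean exceeded the median signal of all probe sets for 3, 4, 1 and 1 of 5 mesophyll, 1, 2, 2 and 1 of 4 xylem, 2 of 3 root hair (in each group) and 1, 0, 1 and 0 of 2 pollen probe sets in FHsf, GHsf, FWt and GWt. Titles put the GHsf arrays B3 and B3-2 on 1 plate while 1 label gives another position, so values that involve GHsf are also given without both arrays where these move them, a setting that leaves 1 GHsf array whose spread is assumed to be that of the other groups. First-run arrays alone likewise leave 1 GHsf array, B3. Nothing in the labels says that plates of a line were separate cultures, so p-values measure the spread between plates. In GHsf that spread also holds the one between arrays B3 and B3-2, which the main fit kept as separate samples.

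The 8 genes differed widely in level and in how well they could be measured. By mean log2 signal, the DRM2 probe set 250139_at was brighter than 79.5% of all probe sets, and the DME probe sets 250834_at and 250836_at were brighter than 73.6% and 66.8%. DDM1 was brighter than 61.4%, DRM2 250140_at than 59.0% and MET1 than 57.3%. CMT3 and DML2 were under the median, above 42.4% and 36.8% of probe sets. ROS1, DME 250835_at and KYP were the dimmest, above 26.8%, 26.2% and 22.0%. Signals of different probe sets are not levels per length, so these places say how bright a probe set was and not which transcript was more abundant.

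**Figure D1:**
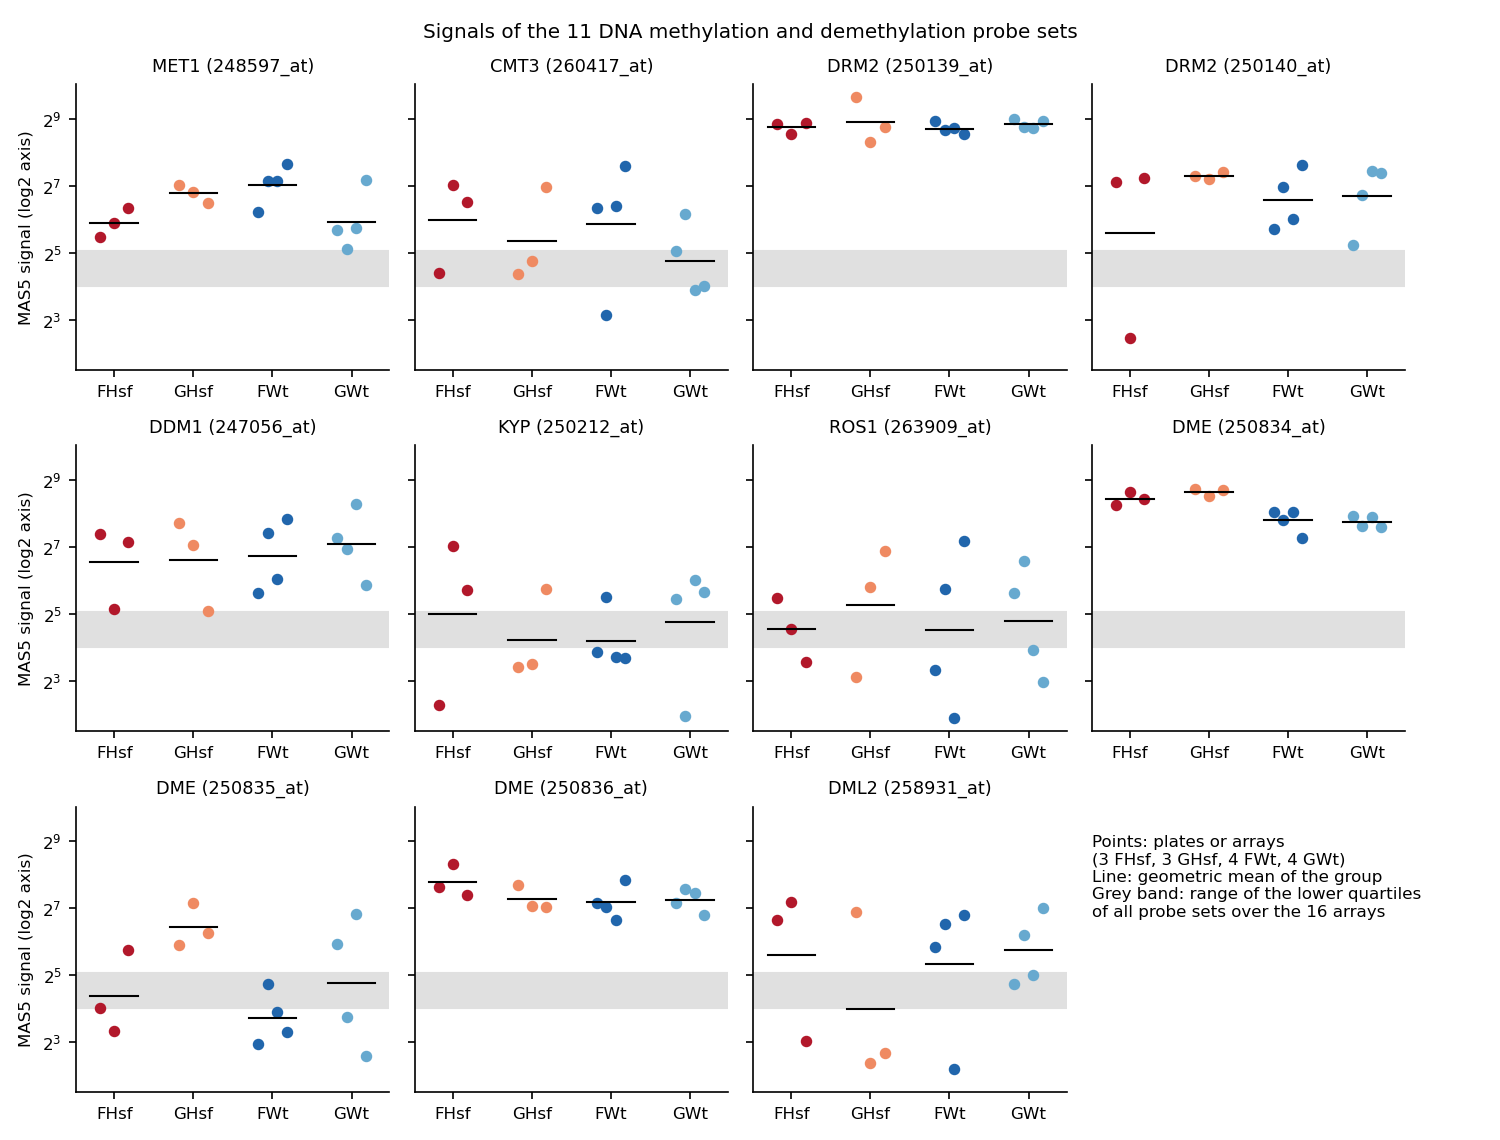
MAS5 signal of each of the 11 probe sets on a log2 axis in FHsf, GHsf, FWt and GWt samples (3, 3, 4 and 4 points), with the geometric mean of each group as a line and the range of the arrays' lower quartiles (16 to 33.2) as a grey band. DME 250834_at is above every WT sample in all 6 HSFA2 KO samples, MET1 is lower in FHsf than in GHsf without overlap, and KYP, ROS1 and DML2 scatter through the grey band in every group.

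Replicates of the dim genes lay far apart. The residual SD within groups, on the log2 scale, was 0.24 for DME 250834_at, 0.34 for DRM2 250139_at, 0.43 for DME 250836_at and 0.62 for MET1. The other 7 probe sets had residual SDs of 1.15 to 2.00, against a median of 1.14 over all probe sets, and the largest were 2.00 for DML2 and 1.85 for ROS1. ROS1 read below its array's lower quartile on 8 of 16 arrays, as did DME 250835_at, KYP did on 7, CMT3 on 6 and DML2 on 5. A 2-fold change could thus best be seen in the 4 tight probe sets, though not in every comparison. The wide intervals of the others, given below, bound little.

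**Figure D2:**
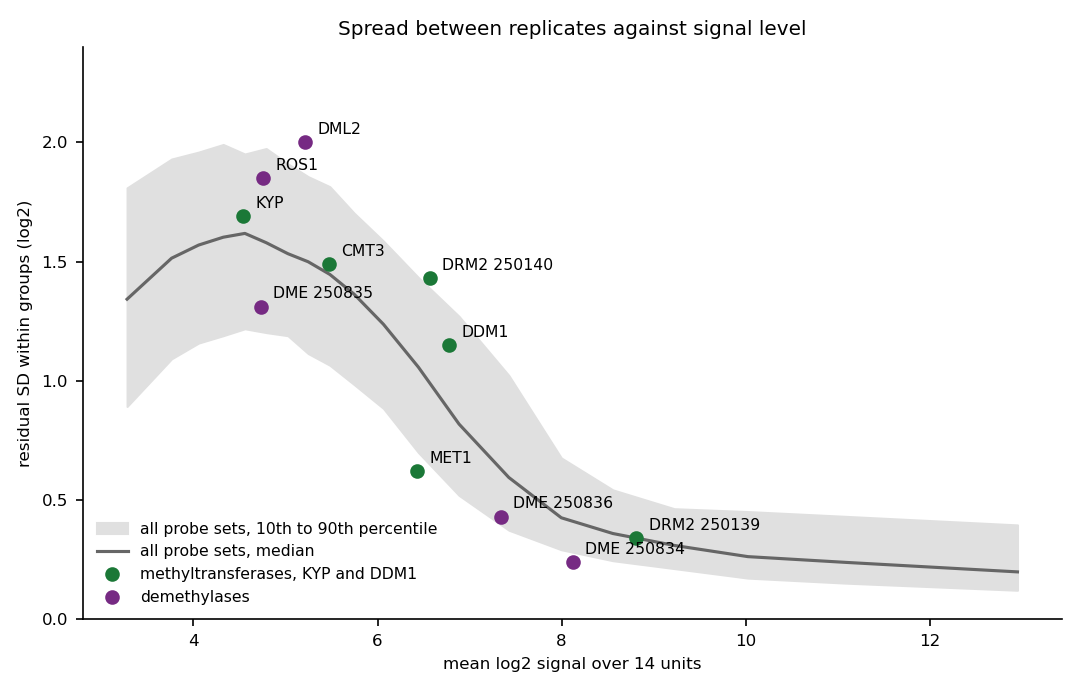
Residual SD within groups on the log2 scale against mean log2 signal over the 14 samples, with all probe sets as a median line and a 10th to 90th percentile band, and the 11 probe sets as points. MET1 at 0.62 lies below the band for its level and DRM2 250140_at at 1.43 near its upper edge.

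Pairs of arrays titled as the same plate followed this split only in part. Of 33 such pairs over the 11 probe sets, 14 differed by more than 2-fold and 9 by more than 4-fold. DME 250834_at differed by 1.08-fold to 1.71-fold and DME 250836_at by 1.12-fold to 1.52-fold. DRM2 250139_at differed by 1.21-fold to 2.54-fold and KYP by 1.07-fold to 8.43-fold. DML2 read 118 on GHsf array B3 and 5.14 on GHsf array B3-2, a 22.9-fold gap. MET1 read 73.8 and 76.0 on the FWt plate A1 arrays but 139 and 19.2 on those of GWt plate A1, a 7.25-fold gap inside a single sample.

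**Figure D3:**
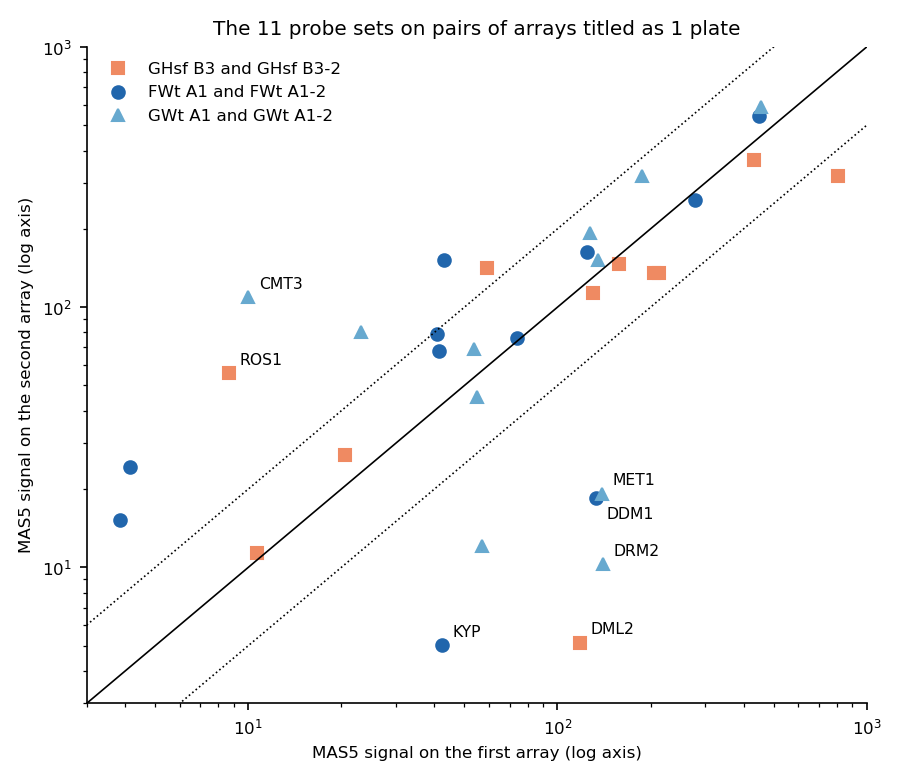
MAS5 signals of the 11 probe sets on the first and second array titled as 1 plate (GHsf B3, FWt A1 and GWt A1), on log axes, with the line of equality and dotted lines at 2-fold. The bright DME and DRM2 probe sets lie near the line except DRM2 250139_at in GHsf B3 (806 and 318), and the named points differ by more than 6-fold.

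In limma's fit over all 4 groups, 0 of the 11 probe sets passed in any comparison, where passing took a log2 fold change beyond 1 in either direction together with a p below 0.01 before adjustment. The share of all probe sets that passed was 0.807% in FWt : GWt, 1.51% in FHsf : GHsf, 2.46% in GHsf : GWt, 1.75% in FHsf : FWt and 1.02% in the interaction of genotype and environment, so a count of 0 among 11 probe sets is near the background in each comparison and is no result about these genes. At an unadjusted p under 0.05, 1 probe set passed in FWt : GWt (background 4.39%), 0 in FHsf : GHsf (6.89%), 1 in GHsf : GWt (10.7%), 2 in FHsf : FWt (7.93%) and 1 in the interaction (4.74%). All of them were MET1 or DME 250834_at. The groups did not overlap for 0 probe sets in FWt : GWt (3.07% of all probe sets), 2 in FHsf : GHsf (13.0%), 1 in GHsf : GWt (13.2%) and 1 in FHsf : FWt (10.5%).

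**Figure D4:**
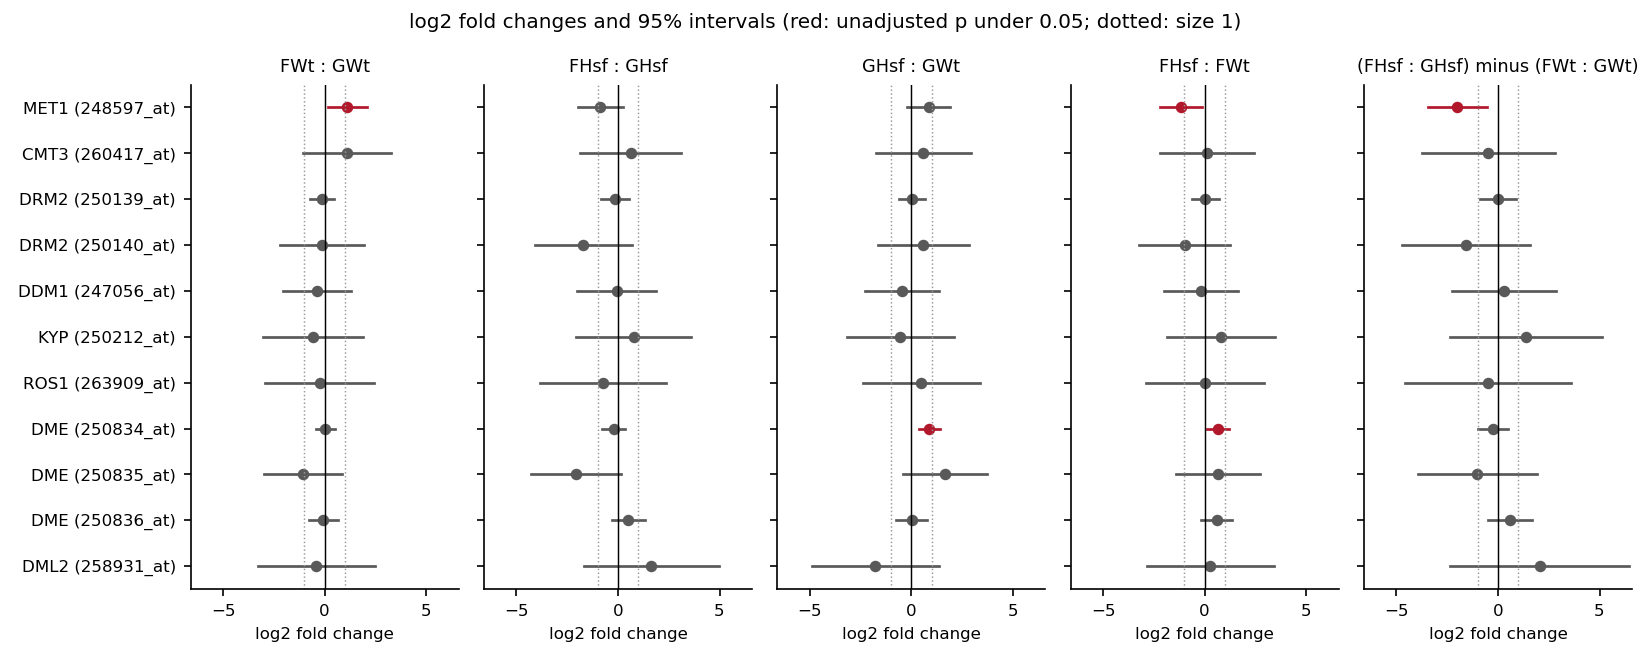
log2 fold changes with 95% intervals from limma for the 11 probe sets in the 4 comparisons and in the interaction, (FHsf : GHsf) minus (FWt : GWt), with dotted lines at a size of 1. Intervals that exclude 0 are those of MET1 in FWt : GWt, FHsf : FWt and the interaction and of DME 250834_at in GHsf : GWt and FHsf : FWt.

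MET1, the maintenance methyltransferase of CG sites, had spaceflight differences of opposite sign in HSFA2 KO and WT cells. Its probe set 248597_at is placed on chromosome 5 from 19932500 to 19938186 on the plus strand in the deposited annotation, whose genome build is not given in the sources used here. MET1 read 44.7, 59.3 and 80.5 in FHsf, against 130, 113 and 90.5 in GHsf. Every HSFA2 KO flight sample was below every HSFA2 KO ground sample. In WT it read 74.9, 141, 143 and 203 in FWt, against 51.6, 34.5, 53.8 and 145 in GWt. The WT groups overlapped, as GWt plate B2 at 145 lay above 3 of the 4 FWt plates (74.9, 141 and 143) and below the fourth (203). The GWt plate A1 value of 51.6 averages arrays at 139 and 19.2, against 73.8 and 76.0 on the FWt plate A1 arrays. Plate B2 was thus not the only source of a high GWt array.

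For MET1 the log2 fold change was 1.12 in FWt : GWt (SE 0.44, 95% interval 0.16 to 2.08, adjusted p = 1.0). In FHsf : GHsf it was −0.88 (SE 0.51, −1.99 to 0.23, adjusted p = 0.782). The difference of these effects, tested as the interaction, was −2.0 (SE 0.67, −3.47 to −0.53, adjusted p = 0.999), a 4.0-fold contrast that missed the p threshold. Between genotypes MET1 differed by −1.15 in FHsf : FWt (SE 0.47, adjusted p = 0.593 in limma) and by 0.85 in GHsf : GWt (SE 0.47, adjusted p = 0.557 in limma). These comparisons share samples, so the 4 differences and the interaction are not independent of each other. Over the 4 groups the order of the mean log2 signal was FWt (7.05), GHsf (6.78), GWt (5.93) and FHsf (5.90), and each group overlapped its neighbour in that order.

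Whether MET1 passed depended on which samples were used. Without GWt plate B2 the interaction was −2.41 (SE 0.53) and passed both thresholds, as did MET1 in FWt : GWt at 1.53 (SE 0.36), in GHsf : GWt at 1.27 (SE 0.39) and in FHsf : FWt at −1.15 (SE 0.36). Without FWt plate A1 the interaction passed at −2.27 (SE 0.65). It did not pass without both GHsf B3 arrays (−1.72), on first-run arrays only (−1.67) or within BRIC B (−1.83). Within BRIC B, MET1 was at 0.95 in FWt : GWt, 0.32 in GHsf : GWt (SE 0.50) and −1.51 in FHsf : FWt (SE 0.50), and without both GHsf B3 arrays it was at −0.60 in FHsf : GHsf and 0.57 in GHsf : GWt, none of which passed. MET1 transcription is tied to DNA replication, and of 14 S phase probe sets listed as a gauge of it, 10 were lower and 4 higher in the interaction, with a median of −0.38 against −0.03 over all probe sets. That median was −0.09 without both GHsf B3 arrays, with 7 lower and 7 higher. The S phase medians were −0.17 in FWt : GWt (6 of 14 higher), −0.22 in FHsf : GHsf (4 higher), 0.30 in GHsf : GWt (11 higher) and −0.12 in FHsf : FWt (5 higher). They had the sign of MET1 in FHsf : GHsf, GHsf : GWt, FHsf : FWt and the interaction, and the opposite sign in FWt : GWt. The summed signal of these 14 probe sets was 1366 to 1568 in FHsf, 1475 to 2222 in GHsf, 1346 to 1787 in FWt and 1220 to 1514 in GWt. Their part in the MET1 values was not tested. The 7 callus and root meristem probe sets had summed signals of 675 to 1141 in FHsf, 1297 to 1827 in GHsf, 918 to 1454 in FWt and 741 to 1034 in GWt. Their medians were 0.09 in FWt : GWt, −0.49 in FHsf : GHsf, 0.98 in GHsf : GWt, −0.10 in FHsf : FWt and −0.69 in the interaction, and without both GHsf B3 arrays 0.65 in GHsf : GWt and −0.92 in the interaction. Their part in the MET1 values was not tested either. LBD16 was the 1 of them that passed, at 1.48 in GHsf : GWt (SE 0.43, adjusted p = 0.269), lost without GWt A2, GWt B1, GHsf B3-2 or GHsf B5-2 and also without both GHsf B3 arrays, at 1.73. Of 4 xylem, 3 root hair and 2 pollen probe sets, 4, 2 and 2 were higher in GHsf : GWt, with medians of 0.80, 1.15 and 0.32. In the interaction 4 of 4 xylem, 3 of 3 root hair, 5 of 5 mesophyll and 1 of 2 pollen probe sets were lower, with medians of −1.38, −1.08, −0.59 and 0.17. RHD6, a root hair transcription factor, passed in FHsf : GHsf at −1.63 (SE 0.47, adjusted p = 0.573), and was at −0.75 without both GHsf B3 arrays. That call was also lost without FHsf B4, GHsf B3 or GHsf B3-2. Of the mesophyll probe sets, PSBO1 passed in FHsf : GHsf at −2.89 (adjusted p = 0.61 in limma) and RBCS1A, whose probe set matches several loci, in GHsf : GWt at 2.57 (adjusted p = 0.309). Of all probe sets 1.51% and 2.46% passed there. With 1 of 14 samples left out at a time, the PSBO1 call was lost in 9 cases and the RBCS1A call in 10. PSBO1 was under the array's lower quartile on 3 of 3 FHsf, 1 of 3 GHsf, 5 of 5 FWt and 4 of 5 GWt arrays, and it ran from −3.87 to −0.62 over the alternatives. The part of these markers in the MET1 values was not tested.

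DDM1, the remodeler that MET1 and CMT3 need in heterochromatin, showed no difference that its spread could resolve. It read 167, 35.4 and 141 in FHsf, 213, 135 and 33.7 in GHsf, 49.5, 170, 66 and 230 in FWt, and 156, 124, 311 and 58.9 in GWt. High and low samples occurred in all 4 groups. Its log2 fold changes ran from −0.47 in GHsf : GWt to 0.30 in the interaction, and the interval in FWt : GWt was −2.05 to 1.31. A change of 2-fold in either direction is within that interval. DDM1 was at 1.48 in FHsf : GHsf and −2.03 in GHsf : GWt without both GHsf B3 arrays, and neither passed.

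CMT3 and KYP, which act together on CHG sites, were both too variable to place. CMT3 read 21.3, 132 and 91.4 in FHsf, 20.5, 27 and 126 in GHsf, 80.8, 8.91, 84.5 and 193 in FWt, and 33, 71.2, 14.8 and 16 in GWt. Its largest difference was 1.10 in FWt : GWt (SE 0.99, −1.06 to 3.25), with 3 of 4 FWt samples above every GWt sample and plate A2 at 8.91 below all of them. That difference was 2.0 without FWt A2, 0.53 without FWt B2 and 3.05 within BRIC B (SE 1.10), and passed in none of these. In FHsf : GHsf CMT3 was at 0.63, which turned to −0.99 without both GHsf B3 arrays, and GHsf : GWt was then 2.21. KYP read 4.82, 131 and 52.5 in FHsf, 10.7, 11.4 and 53.3 in GHsf, 14.6, 45.6, 13.1 and 12.7 in FWt, and 43.2, 3.88, 65.4 and 50.6 in GWt. The KYP intervals reached from −3.03 to 1.87 in FWt : GWt and from −2.05 to 3.61 in FHsf : GHsf. Over the 14 samples, CMT3 and KYP had a correlation of −0.01, given as a description.

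DRM2, the methyltransferase of the small RNA pathway, differed little between groups in its brighter probe set. Both probe sets lie on the minus strand of chromosome 5, 250139_at from 4715428 to 4716874 and 250140_at from 4717358 to 4718578, and 250140_at carries the old locus name At5g14630 but matches DRM2 transcripts. DRM2 250139_at read 464, 379 and 471 in FHsf, 806, 318 and 434 in GHsf, 493, 409, 424 and 374 in FWt, and 518, 434, 432 and 491 in GWt. All groups overlapped. Its log2 fold change was −0.14 in FWt : GWt (SE 0.27, −0.74 to 0.45) and 0.04 in FHsf : FWt (SE 0.29, −0.60 to 0.69), and these intervals exclude a 2-fold change. The intervals of FHsf : GHsf (−0.83 to 0.55) and GHsf : GWt (−0.60 to 0.68) did so too with all GHsf arrays, but GHsf array B3 decides the values. Without it they were 0.23 and −0.33, and on first-run arrays only, where it is the 1 GHsf array, −0.93 (SE 0.35) and 0.83 (SE 0.32), which do not exclude a 2-fold change.

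The other DRM2 probe set, which lies towards the 5′ end of the gene, did not track the first. DRM2 250140_at read 139, 5.48 and 151 in FHsf, 158, 147 and 170 in GHsf, 52.9, 127, 65.2 and 198 in FWt, and 38.1, 107, 177 and 168 in GWt. The low FHsf value came from plate B4 alone. Its log2 fold change of −1.70 in FHsf : GHsf (SE 1.10, adjusted p = 0.809) was −0.13 without that plate. The correlation of both DRM2 probe sets over the 14 samples was 0.13.

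DME, a demethylase, read higher in HSFA2 KO than in WT cells in the probe set at the 5′ end of the gene, in both environments. DME 250834_at lies on the plus strand of chromosome 5 from 1309857 to 1313120. It read 310, 400 and 348 in FHsf, against 268, 227, 264 and 156 in FWt. On the ground it read 431, 368 and 417 in GHsf, against 244, 199, 238 and 194 in GWt. No HSFA2 KO sample overlapped a WT sample of either environment, and among single arrays only the second array of GWt plate A1, at 320, exceeded an HSFA2 KO array, the FHsf array at 310.

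The DME 250834_at signal averaged 405 ± 33.1 in GHsf and 219 ± 26.1 in GWt (SD, n = 3 and 4), a log2 fold change of 0.89 (SE 0.24, 95% interval 0.36 to 1.43, adjusted p = 0.238). That is 1.86-fold, which met the p threshold and missed the fold threshold. In spaceflight it averaged 353 ± 45.5 in FHsf and 229 ± 52 in FWt, a log2 fold change of 0.65 (SE 0.24, 0.11 to 1.18, adjusted p = 0.532). In an exact two-sided permutation test, each comparison gave p = 0.0286, the smallest that 3 against 4 samples can give. With GHsf B3 and B3-2 averaged as 1 plate, the exact two-sided p in GHsf : GWt was 0.0667, the smallest that 2 against 4 can give. Between environments the differences of this probe set were smaller. The log2 fold change was 0.04 in FWt : GWt (−0.45 to 0.53) and −0.20 in FHsf : GHsf (−0.77 to 0.36), which exclude a 2-fold change with all GHsf arrays. Without both GHsf B3 arrays FHsf : GHsf was −0.25, and on first-run arrays only −0.21, which do not exclude it. The interaction was −0.25 (−1.0 to 0.51) with all arrays.

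The genotype difference of DME 250834_at kept its sign in every setting tried and passed both thresholds in none. In GHsf : GWt it met the p threshold with the GHsf B3 arrays averaged (0.90), with 32 added before the log (0.80) and with an intensity trend (0.89). It missed that threshold within BRIC B, with quantile normalization, without both GHsf B3 arrays, on first-run arrays only (1.08) and with the array run as a term (0.79). Within BRIC B it was 0.91 in GHsf : GWt and 0.79 in FHsf : FWt. With quantile normalization, which took the median of all probe sets in GHsf : GWt to −0.01, against 0.12 before, it was 0.77 in GHsf : GWt and 0.63 in FHsf : FWt. Without both GHsf B3 arrays it was 0.94 in GHsf : GWt, and leaving out any 1 sample moved it between 0.84 and 0.96 in GHsf : GWt and between 0.47 and 0.74 in FHsf : FWt. Of the mesophyll markers 5 of 5 probe sets were higher in GHsf : GWt, with a median log2 fold change of 1.82, and their summed signal was 376 to 642 in GHsf and 183 to 260 in GWt. In FHsf : FWt 4 of 5 were higher, with a median of 0.94 and sums of 302 to 459 in FHsf and 172 to 248 in FWt, and their part in the DME values was not tested.

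The other DME probe sets were read in the same samples. DME 250836_at, annotated to the old locus At5g04580 and lying nearest the 3′ end, from 1316376 to 1318091, read 199, 318 and 167 in FHsf, 205, 135 and 132 in GHsf, 143, 131, 101 and 231 in FWt, and 143, 190, 177 and 110 in GWt. Its log2 fold change in GHsf : GWt was 0.02 (SE 0.35, −0.74 to 0.79), beside 0.89 for 250834_at. That interval excludes a 2-fold change with all GHsf arrays. Without both GHsf B3 arrays it was −0.20, and on first-run arrays only 0.46, which do not exclude a 2-fold change. In FHsf : FWt it was 0.60 (SE 0.35, −0.16 to 1.37, adjusted p = 0.713 in limma), close in size to the 0.65 of 250834_at. That interval and the one in FHsf : GHsf (−0.31 to 1.33) allow a 2-fold change. Whether the probe sets differ from each other was not tested.

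The middle probe set, DME 250835_at at 1313405 to 1315351 and annotated to At5g04570, was dim. It read 16.1, 9.97 and 53.9 in FHsf, against 59, 141 and 77.1 in GHsf, without overlap, and 7.64, 26.5, 14.8 and 9.86 in FWt, against 60.9, 13.5, 113 and 5.89 in GWt. Its log2 fold change was −2.07 in FHsf : GHsf (SE 1.01, adjusted p = 0.729) and 1.66 in GHsf : GWt (SE 0.95, adjusted p = 0.564), against −1.91 and 1.5 without both GHsf B3 arrays. In FHsf : FWt it was 0.65, as for 250834_at. With 32 added to every signal before the log, the FHsf : GHsf value was −1.10, and 8 of its 16 array values were under the lower quartile. The DME probe sets correlated over the 14 samples at 0.48 (250834_at and 250835_at), 0.16 (250834_at and 250836_at) and −0.12 (250835_at and 250836_at). RefSeq lists both old locus names as synonyms of DME, and the files do not say which exons each probe set covers.

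ROS1, the demethylase whose transcript falls in methylation mutants, was near the floor of the arrays and gave no resolvable difference. It read 44.5, 23.6 and 11.9 in FHsf, 8.65, 55.8 and 117 in GHsf, 10.1, 53.6, 3.66 and 144 in FWt, and 49.8, 96.6, 15 and 7.83 in GWt. High and low values occurred in each group. Its log2 fold change was −0.25 in FWt : GWt (−2.92 to 2.43), −0.73 in FHsf : GHsf (−3.82 to 2.36), 0.49 in GHsf : GWt (−2.40 to 3.38) and 0.01 in FHsf : FWt (−2.88 to 2.90). Each of these intervals allows a 4-fold change in either direction. It was −2.34 in FHsf : GHsf and 2.10 in GHsf : GWt without both GHsf B3 arrays. ROS1 and MET1 had a correlation of −0.17 over the 14 samples.

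DML2, a demethylase that acts with ROS1 and DML3 in vegetative tissue, had the widest spread of the set. It read 99.4, 144 and 8.14 in FHsf, 118, 5.14 and 6.32 in GHsf, 56.7, 92.5, 4.53 and 110 in FWt, and 26.3, 74, 32.1 and 129 in GWt. Values under 10 occurred in FHsf, GHsf and FWt. Its log2 fold change was 1.64 in FHsf : GHsf (SE 1.53, −1.69 to 4.98) and −1.77 in GHsf : GWt (SE 1.43, −4.89 to 1.35). On first-run arrays only, both changed sign, to −1.78 and 0.86, and without both GHsf B3 arrays they were 2.95 and −3.08.

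Taken as a list, the 11 probe sets held members on both sides of 0 in each comparison. Of 11, 3 were higher in FWt : GWt, with a median log2 fold change of −0.14 (−0.03 over all probe sets), and 4 were higher in FHsf : GHsf, with a median of −0.14 (−0.07 over all). In GHsf : GWt 8 were higher with a median of 0.49 (0.12 over all), which was 6 and 0.20 under quantile normalization. In FHsf : FWt 8 were higher with a median of 0.12 (0.07 over all), which turned to 5 and −0.04 under quantile normalization. In the interaction 5 were higher and 6 lower, with a median of −0.25. Without both GHsf B3 arrays the medians were −0.60 in FHsf : GHsf, 0.70 in GHsf : GWt (7 higher) and −0.29 in the interaction. Over the 14 samples the 55 pairs of these probe sets had correlations of −0.57 to 0.54, with a median of 0.01, as a description of points that share arrays.

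The machinery of RNA-directed DNA methylation brings DRM2 to its targets through RNA polymerases IV and V, small RNAs and ARGONAUTE proteins. It was measured by 19 probe sets for 17 genes, and 0 passed the thresholds in any comparison. At an unadjusted p under 0.05 only SUVH9, which recruits polymerase V to methylated DNA, was found, in FWt : GWt. SUVH9 read 386, 491, 424 and 372 in FWt, against 201, 243, 257 and 384 in GWt, 0.66 on the log2 scale (SE 0.24, adjusted p = 1.0). The groups overlapped through GWt plate B2, the same plate that was high for MET1.

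The median of this list was above that of all probe sets in GHsf : GWt and below it in FHsf : GHsf. In GHsf : GWt 14 of 19 probe sets were higher, with a median of 0.53 (0.42 under quantile normalization), and in FHsf : GHsf 14 of 19 were lower, with a median of −0.45 (−0.31). Without both GHsf B3 arrays these were 15 higher with a median of 0.51, and 13 lower with a median of −0.21. These comparisons share the GHsf samples. The summed signal was 5791 to 6230 in GHsf, above 3737 to 5474 in FHsf and 4204 to 4417 in GWt, and it was 3797 to 4990 in FWt. RDM1, 1 of the 19 probe sets, made up a large part of the GHsf and GWt sums, at means of 2867 and 2080. Array medians also differed, at 100 to 123 in GHsf, 85.2 to 122 in FHsf and 76.1 to 109 in GWt. The sums are therefore not read as a level of the whole pathway. By the smallest p, a probe set listed for DMS3, a hinge protein of the polymerase V complex, led in GHsf : GWt at 0.87 (SE 0.43, adjusted p = 0.509 in limma). Another probe set listed for DMS3 was at 0.62 there (SE 0.5, adjusted p = 0.698 in limma). Whether the leading probe set also matches another locus is not given here, so its value is not read as that of the gene. NRPD2, the shared second subunit of polymerases IV and V, led in FHsf : GHsf at −0.64 (SE 0.38, adjusted p = 0.795) and in the interaction at −0.76 (SE 0.51, adjusted p = 0.999), through a probe set that also matches its near copy At3g18090. DRD1, the remodeler of that pathway, led in FHsf : FWt at 1.21 (SE 0.60, adjusted p = 0.652) on signals averaging 22.7 and 11.1.

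**Figure D5:**
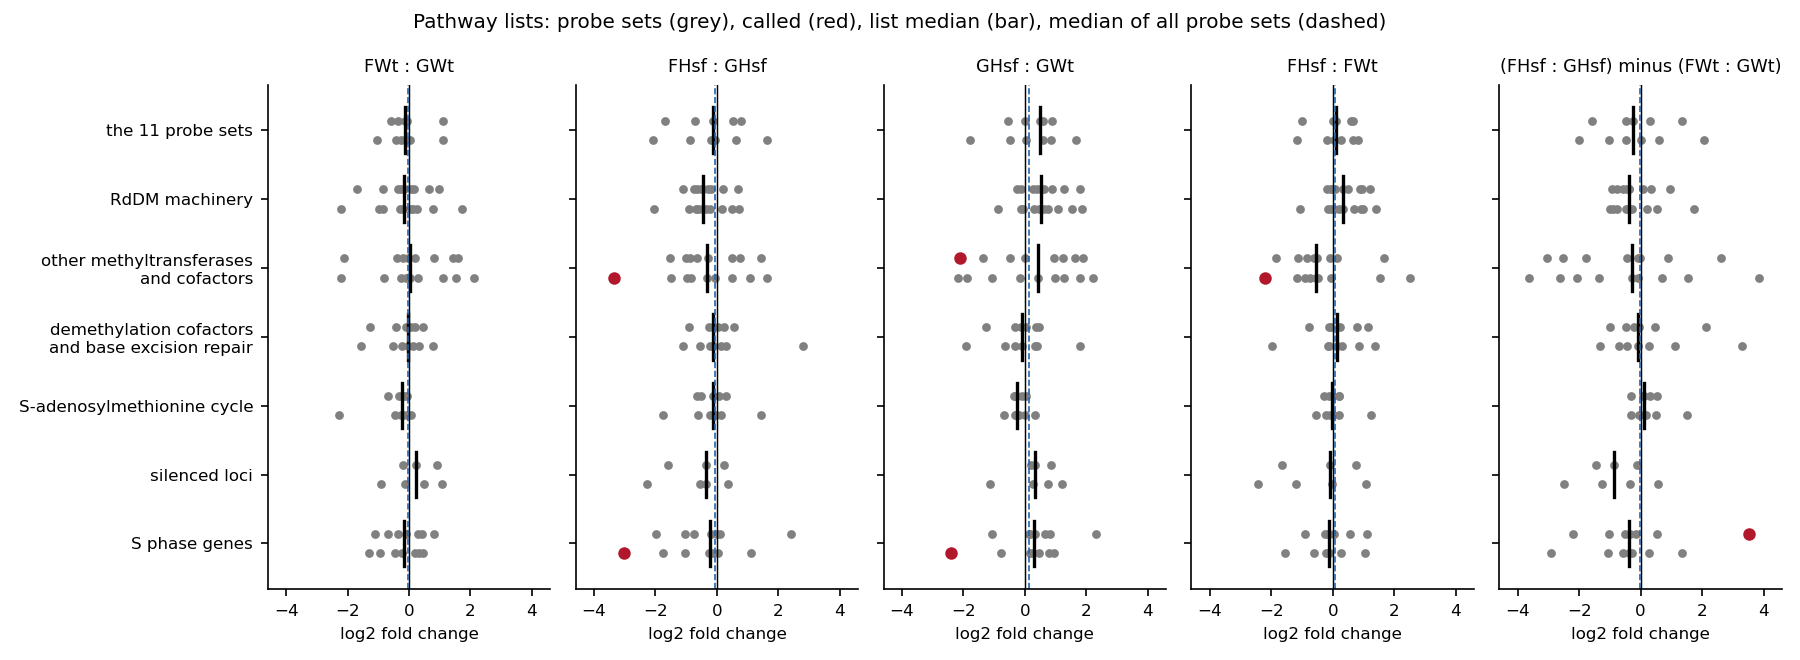
log2 fold changes of the 11 probe sets and of 6 pathway lists in the 4 comparisons and the interaction, with the list median as a bar, the median of all probe sets as a dashed line and probe sets past both thresholds in red. Red points are MEE57 and CYCA3;1 in FHsf : GHsf, DRM1 and CDT1A in GHsf : GWt, DRM1 in FHsf : FWt and CDT1A in the interaction.

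Among the other methyltransferases and the maintenance cofactors, 17 probe sets in all, 2 genes passed. DRM1, the close relative of DRM2, was lower in HSFA2 KO cells in both environments. It read 38, 14 and 8.65 in FHsf, against 144, 32.3, 48.7 and 150 in FWt, and 59.5, 32 and 15.4 in GHsf, against 145, 95.3, 140 and 163 in GWt. The log2 fold change was −2.20 in FHsf : FWt (SE 0.67, adjusted p = 0.401) and −2.11 in GHsf : GWt (SE 0.67, adjusted p = 0.298). In GHsf : GWt the groups did not overlap, and in FHsf : FWt 1 FHsf sample lay inside the range of FWt.

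The DRM1 call was lost within BRIC B, where the log2 fold change was −2.36 in FHsf : FWt and −2.30 in GHsf : GWt with a larger error. With 1 of 14 samples left out at a time the log2 fold change stayed between −2.80 and −1.73 in FHsf : FWt, and the call was lost without FWt A1, FWt B2, FHsf B4 or FHsf B5. In GHsf : GWt it stayed between −2.59 and −1.61, and the call was lost in 8 of 14 cases, namely without any GWt sample, GHsf B3-2, GHsf B5-2, FWt B1 or FHsf B4. On first-run arrays only it was −1.17 in GHsf : GWt, and without both GHsf B3 arrays it passed there at −3.12. With 32 added before the log it was −1.16 in FHsf : FWt, which did not pass, and −1.35 in GHsf : GWt, which did. DRM1 read under its array's lower quartile on 2 of 3 FHsf and 1 of 3 GHsf arrays and on none of the WT arrays. The share of all probe sets that passed was 1.75% in FHsf : FWt and 2.46% in GHsf : GWt, and the difference between DRM1 and DRM2 was not tested.

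MEE57, annotated as a methyltransferase of the MET1 family, was lower in FHsf than in GHsf. It read 4.80, 127 and 5.81 in FHsf, against 123, 175 and 172 in GHsf, with 1 FHsf sample inside the range of GHsf. The log2 fold change was −3.34 (SE 1.07, adjusted p = 0.61), in a comparison where 1.51% of all probe sets passed. Leaving out 1 sample at a time ended the call in 12 of 14 cases, all but GWt A1 and FHsf B4, with log2 fold changes of −4.87 to −2.51. It passed with 32 added before the log, at −1.63, and did not on first-run arrays (−2.18) or without both GHsf B3 arrays (−3.50), and it passed in 6 of 23 alternatives in all. In WT it read 29.9, 56, 46.6 and 112 in FWt, against 16, 52.4, 50.9 and 89.6 in GWt, and the interaction was −3.64 (SE 1.42, adjusted p = 0.999). CMT1, a relative of CMT3 that is thought to be inactive in many strains, had the smallest p of the list in FWt : GWt, at 2.10 (SE 0.91, adjusted p = 1.0). CMT1 read 109, 36.7, 77.6 and 67.5 in FWt, against 10.2, 3.61, 11.4 and 145 in GWt, with GWt B2 above every FWt sample. It was under the array's lower quartile on 4 of 5 GWt arrays. VIM1, which brings MET1 to hemimethylated CG sites, averaged 1100 in FHsf, 1372 in GHsf, 1007 in FWt and 1021 in GWt and did not pass in any comparison.

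The cofactors of demethylation and base excision repair, which recruit the glycosylases or finish their reaction, were measured by 13 probe sets, and 0 passed. ROS3, an RNA-binding protein that acts with ROS1, came nearest. It read 755, 668 and 799 in FHsf, against 1202, 1319, 1187 and 1347 in FWt, without overlap, −0.77 on the log2 scale (SE 0.20, adjusted p = 0.329), which missed the fold threshold. On the ground it read 973, 747 and 873 in GHsf, against 950, 964, 911 and 831 in GWt, a difference of −0.09 (SE 0.20). ROS3 was also the smallest p of the list in FWt : GWt, at 0.47 (SE 0.18, adjusted p = 1.0), with every FWt sample above every GWt sample, and its interaction was −0.69 (SE 0.28). AE7, an iron-sulphur assembly factor that DNA glycosylases of this family need, was read through a probe set annotated to At3g09380 that matches AE7 as well. It led in FHsf : GHsf at 2.79 (SE 0.97, adjusted p = 0.633), GHsf : GWt at −1.92 (SE 0.90, adjusted p = 0.483) and the interaction at 3.31 (SE 1.28, adjusted p = 0.999). These values rest on GHsf signals near the floor, at 6.67, 11.9 and 13.2. AE7 was under the array's lower quartile on 3 of 3 GHsf, 2 of 5 FWt and 2 of 5 GWt arrays.

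The S-adenosylmethionine cycle supplies the methyl group for all of these methyltransferases, and 0 of its 11 probe sets passed. SAM2, an S-adenosylmethionine synthetase, was among the brightest genes examined. It read 11694, 11528 and 12392 in FHsf, against 16274, 16514, 17707 and 19599 in FWt, and 11398, 11361 and 11359 in GHsf, against 16143, 18772, 20987 and 16673 in GWt. HSFA2 KO and WT samples did not overlap in either environment. The log2 fold change was −0.56 in FHsf : FWt (SE 0.19, adjusted p = 0.485) and −0.67 in GHsf : GWt (SE 0.19, adjusted p = 0.268), both under the fold threshold. SAHH2, a homolog of the hydrolase that clears the inhibitory product of methylation, had the smallest p in FWt : GWt at −2.28 (SE 0.75, adjusted p = 1.0) and in FHsf : GHsf at −1.75 (SE 0.87, adjusted p = 0.736). SAHH2 read 12.2, 156 and 9.9 in FHsf, against 82.5, 89.5 and 97.3 in GHsf, so these groups overlapped. In WT it read 35.5, 34.5, 15.4 and 15.6 in FWt, against 72.6, 92.6, 210 and 117 in GWt. It was under the array's lower quartile on 2 of 3 FHsf and 3 of 5 FWt arrays. HOG1, the main hydrolase of this kind, averaged 16981 in FHsf, 18740 in GHsf, 19573 in FWt and 23469 in GWt. SAM1 had the smallest p in the interaction, at 0.49 (SE 0.31, adjusted p = 0.999).

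Of 7 probe sets for loci whose expression is linked to DNA methylation, 0 passed. FWA, which is methylated and silent in vegetative tissue, averaged 8.36 in FHsf, against 49.9 in GHsf and 26.7 in FWt, with every FHsf sample below every sample of those groups. It read 8.58, 6.25 and 10.3 in FHsf, against 76.8, 13.9 and 59 in GHsf, and 42.8, 3.40, 34.9 and 45.6 in GWt. These are signals near the floor, under the array's lower quartile on 3 of 3 FHsf, 1 of 3 GHsf, 2 of 5 FWt and 1 of 5 GWt arrays. It led by p in FHsf : GHsf at −2.28 (SE 0.92, adjusted p = 0.675), in FHsf : FWt at −1.65 (SE 0.86, adjusted p = 0.675) and in the interaction at −2.51 (SE 1.21, adjusted p = 0.999). BNS, which gains methylation in ddm1 mutants and was not silent here at 56.1 to 300, averaged 258 in FWt and 139 in GWt, a difference of 1.08 on the log2 scale (SE 0.40, adjusted p = 1.0), and led in GHsf : GWt at 0.75 (SE 0.43, adjusted p = 0.563). The WT groups overlapped for BNS, which read 267, 257, 289 and 220 in FWt, against 172, 228, 56.1 and 100 in GWt. In the interaction 6 of the 7 probe sets were lower, with a median of −0.86 (−0.03 over all probe sets), which was −0.47 within BRIC B and −1.28 without both GHsf B3 arrays, with 5 of 7 lower.

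In the S phase list 2 of 14 probe sets passed, CYCA3;1 in FHsf : GHsf and CDT1A in GHsf : GWt and the interaction. Of all probe sets 1.51%, 2.46% and 1.02% passed there, and the count is not read as a result about the list. CYCA3;1 was under its array's lower quartile on 2 of 3 FHsf arrays, and CDT1A on 3 of 3 GHsf arrays. CYCA3;1, a cyclin of the G1 to S transition, read 43.2, 7.69 and 5.93 in FHsf, against 186, 63.2 and 93.4 in GHsf, which is −3.04 on the log2 scale (SE 0.97, adjusted p = 0.61). CDT1A, which licenses replication origins, read 15.4, 17.8 and 5.43 in GHsf, against 79, 53.7, 57.4 and 57.4 in GWt, at −2.42 (SE 0.75, adjusted p = 0.29), and passed in the interaction at 3.53 (SE 1.06, adjusted p = 0.937). Leaving out 1 sample at a time ended the CYCA3;1 call in 9 of 14 cases (without FWt A1 or B1, GWt A1 or A2, FHsf B4 or B5, or any GHsf sample) and the CDT1A call in 8 of 14 in GHsf : GWt (without FWt A2, any GWt sample, FHsf B4, GHsf B3 or GHsf B5-2) and 5 of 14 in the interaction (without GWt A1, B1 or B2, FHsf B5 or GHsf B5-2). Without both GHsf B3 arrays CYCA3;1 did not pass at −2.90, nor did CDT1A at −3.49 in GHsf : GWt, whereas CDT1A passed in the interaction at 4.61. In FHsf : FWt CDT1A had the smallest p at 1.11 (SE 0.75, adjusted p = 0.759), and in FWt : GWt it was TSO2, a ribonucleotide reductase subunit, at 0.81 (SE 0.38, adjusted p = 1.0).

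The probe sets most like MET1 and ROS1 over the 14 samples were sought among those above the median signal, 11342 for MET1 and 11343 for ROS1. For MET1 the highest Pearson correlations were 0.774 with At1g56505, 0.748 with At1g53460 and 0.742 with APS3 (At4g14680), an ATP sulfurylase. For ROS1 they were 0.847 with BGLU15 (At2g44450), a beta-glucosidase, 0.815 with RPE (At5g61410), a pentose phosphate epimerase, and 0.794 with At5g03450. After a search of that size over 14 samples, these values describe the arrays and carry no test.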

How the data were processed

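Callus RNA was measured on 16 Affymetrix ATH1 arrays. The deposited intensity of a probe set is its linear MAS5 signal from Affymetrix Expression Console, with a trimmed mean that the authors set alike for all arrays. Coordinates and locus names come from array annotation in a second deposited table. Log2 fold changes and p-values in that table are the authors' own comparisons and were not used.

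After log2 transformation with no offset, the 2 arrays of plate A1 were averaged in each WT group, and 22687 of 22810 probe sets were fitted over all 14 samples with lmFit and eBayes of limma 3.58.1 in R 4.3.3 (10 residual and 1.65 prior degrees of freedom). The other 123 were left out. A probe set was called at a p below 0.01 before adjustment together with a log2 fold change beyond 1 either way. These sizes follow the study, whose methods name Benjamini-Hochberg correction without saying whether that p is adjusted. Printed adjusted p-values are Benjamini-Hochberg values over all probe sets. Intervals are 95% intervals of the fit. The fit was run on simulated normal data in which 200 probe sets above the median signal were shifted by a fixed size in FWt. That run does not cover probe sets under the median signal or smaller changes. The number of arrays limits precision: the median residual SD was 1.51 below and 0.427 above the median signal.

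The genes and lists were chosen with earlier results of these data known. All 11 probe sets found for the 9 genes were fitted in every comparison. Of the pathway and marker lists, genes past the thresholds and the gene with the smallest p per comparison are named, for marker lists only where a result needs them, and VIM1 and HOG1 were added after their values were seen. SHH1, MCM6 and WOX5 were not analysed here. Alternatives were an offset of 32, quantile normalization, probe sets above the median, BRIC B only, averaged GHsf B3 arrays, first-run arrays, single arrays with the run as a term, an intensity trend, a block by plate position and each sample left out. Dropping both GHsf B3 arrays was added after seeing the data. RefSeq symbols are of TAIR10.1. Figures were drawn with matplotlib 3.10.9 in Python 3.11.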

Additional observations from a re-analysis of the deposited data

Results flagged for a closer look

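KYP stood out in both WT groups because plate A2 lay far from the other 3 plates. In FWt plate A2 read 45.6 and the others 12.7 to 14.6, with a gap of 0.89 of the group's log2 range. In GWt plate A2 read 3.88 and the others 43.2 to 65.4, with a gap of 0.853. Both gaps exceed Dixon's critical value for 4 samples. Of 22 such sets of WT values 2 did, and chance alone flags about 1 in 20. Repeat arrays of KYP on FWt plate A1 read 42.4 and 5.03, an 8.43-fold gap.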

How the results depend on the processing

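Of 118 counts of called enzyme probe sets under the alternatives, 112 stayed at 0. The interaction count was 1 with only probe sets of a mean signal over the median, where 6 of the 11 were left. Leaving out 1 sample at a time gave 0 to 1 in FWt : GWt, GHsf : GWt, FHsf : FWt and the interaction and 0 in FHsf : GHsf. Each added call was MET1, without GWt plate B2 or, in the interaction, FWt plate A1, and the cause was not tested. Of the log2 fold changes of single probe sets, 1139 of 1273 values kept their sign and 134 changed it, 113 by less than their SE and 21 by more, with no call on either side. Of those that kept it, 6 became calls.

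No label ties plates of the same number across environments, and deviations of same-numbered plates correlated at 0.00234 to 0.0941 in WT and −0.0419 to 0.125 in HSFA2 KO. With plate position as a replicate block, 0 enzyme probe sets passed, and MET1 was at 1.12 in FWt : GWt, −0.90 in FHsf : GHsf and −2.01 in the interaction.

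Over all probe sets, 183 passed in FWt : GWt, against 91 with an intensity trend, 53 above the median signal and 302 within BRIC B. In FHsf : GHsf 342 passed (138 above the median signal), in FHsf : FWt 397 (228) and in the interaction 231 (71, 147 with a trend, 361 on first-run arrays and 386 without both GHsf B3 arrays, a setting added after seeing the data). That setting also moved the split of calls into higher and lower, to 166 and 351 from 346 and 212 in GHsf : GWt, to 335 and 121 from 124 and 218 in FHsf : GHsf and to 277 and 109 from 91 and 140 in the interaction. Dim signals limit most of these genes.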
